A study of Mus musculus with 31 samples.

Results

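Hippocampal RNA of 3 wild type (wt) mice at 20 months of age was compared with that of 3 wt mice at 4.5 months, which gives 6 of the 31 arrays of the series, identified by their labels. The comparison itself was chosen with earlier results of these data known. All of these animals were male C57BL/6 mice without a transgene, and each array carried total RNA of homogenized hippocampus. The other arrays came from wt mice at 10 days, 9 months and 14.5 months and from Glud1 transgenic (Tg) mice at the same ages, in which the gene of glutamate dehydrogenase is over-expressed in neurons. Of these, the 6 Tg mice of 4.5 and 20 months and the 6 wt mice of 9 and 14.5 months are shown beside the aging wt mice. The labels name neither a scan day nor a processing batch, so that age and the run of the arrays cannot be told apart, and in a whole hippocampus fewer cells of a type and less RNA in each cell cannot be told apart either.

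The hippocampus encodes new memories, and its circuit runs from the granule cells of the dentate gyrus through the pyramidal cells of CA3 to those of CA1, with glutamate as the transmitter at each of these synapses. Local interneurons release GABA, astrocytes take up the glutamate that escapes, oligodendrocytes wrap axons in myelin, and microglia clear debris and survey the tissue for damage. In old rodents the birth of new granule cells is known to decline, and glial and immune genes have often been described to increase, while most neurons of the structure survive.

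Values are log2 signals after quantile normalization, on which a step of 1 is a factor of 2, and a change is the mean of the mice of 20 months minus that of the mice of 4.5 months with its standard error. Of 45037 mouse probe sets, 26877 were bright enough to be tested, and each of 12844 genes is shown by its probe set of highest mean. P values come from limma and carry a Benjamini-Hochberg adjustment over all 26877, and a gene is said to have risen or fallen only where the adjusted p lay under 0.05.

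The defining markers of the hippocampus were present in all 6 mice. Snap25 and Syt1 of neurons lay at or above percentile 99.8 of every array, and the markers of dentate, CA1 and CA3 cells, astrocytes, oligodendrocytes and microglia lay above its median. The summed signal of the 4 choroid plexus markers, a tissue that touches the hippocampus in the ventricle, was 11.88, 9.25 and 15.21 at 4.5 months and 14.75, 15.36 and 15.35 at 20 months, a sum that Ttr, whose signal was near the top of the scale, dominates (exact permutation test, two-sided, p = 0.2). Averaged over 16 choroid plexus genes the level was 6.29, 4.99 and 8.82 at 4.5 months and 7.45, 10.15 and 9.99 at 20 months, so that mice 1 and 2 of the younger age were the lowest and mouse 1 of the older age lay below the third young mouse. The 3'/5' ratio of Gapdh, a measure of how far the labelled RNA reached, was -0.08, 0.0 and 0.0 in log2 at 4.5 months and -0.45, -0.46 and -0.43 at 20 months (exact permutation test, two-sided, p = 0.1, the smallest that 3 mice against 3 allow), and that of beta-actin was 0.43 to 0.46 against 0.51 to 0.55. The spiked-in control CreX-3, which is added at the same amount to each sample, read 14.66, 15.05 and 14.78 against 14.32, 14.27 and 14.23 (p = 0.1 by the same exact test). The spiked-in controls BioB-3, BioC-3 and BioDn-3 were also higher in every young mouse (p = 0.1 for each by the same exact test). They read at least 9.09, 11.27 and 12.68 in the young and at most 8.91, 10.87 and 12.52 in the old mice. The summed markers of neurons lay at 16.04 to 16.11 against 15.80 to 15.86 (p = 0.1 by the same exact test). Of these markers Snap25 and Syt1 changed by only 0.06 and -0.07. Slc17a7 and Rbfox3, which are also among the falls below, changed by -1.94 and -0.54. Summed markers of neighbouring brain regions were 9.11 to 9.94 in the younger and 8.53 to 8.83 in the older mice (p = 0.1 by the same exact test). The part of these shifts in the changes below was not tested, and each count that rests on mice 1 and 2 is given without them where it moved by over 1.5 times.

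Changes in both directions were of nearly equal number, a balance that the scaling and quantile normalization of the arrays favour. Without quantile normalization, on signals that MAS5 had already scaled, 3608 probe sets rose and 3869 fell. The balance and the small median change are thus no evidence on the direction of aging. Of the 26877 probe sets, 3958 (14.7%) were higher and 3668 (13.6%) were lower at 20 months. By gene, 2031 (15.8%) rose and 1978 (15.4%) fell, and the median change over all genes was 0.03. These shares are the background for the counts of every list below, and no list was tested against them. The rises had a median size of 0.51 and the falls of -0.60, and 407 probe sets rose and 692 fell by at least 2-fold. The 3 old mice lay above all 3 young mice in 24.3% of genes and below them in 21.3%. Without mice 1 and 2 at 4.5 months, which leaves a single young mouse, 2294 probe sets rose and 2241 fell, and without mouse 1 at 20 months 3233 rose and 3104 fell. Where a gene that rose had a further tested probe set, which held for 1138 genes, another of its probe sets had also risen in 486 and had fallen in 112, so that a change reported here is that of a probe set and not always of every transcript of the gene.

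**Figure D1:**
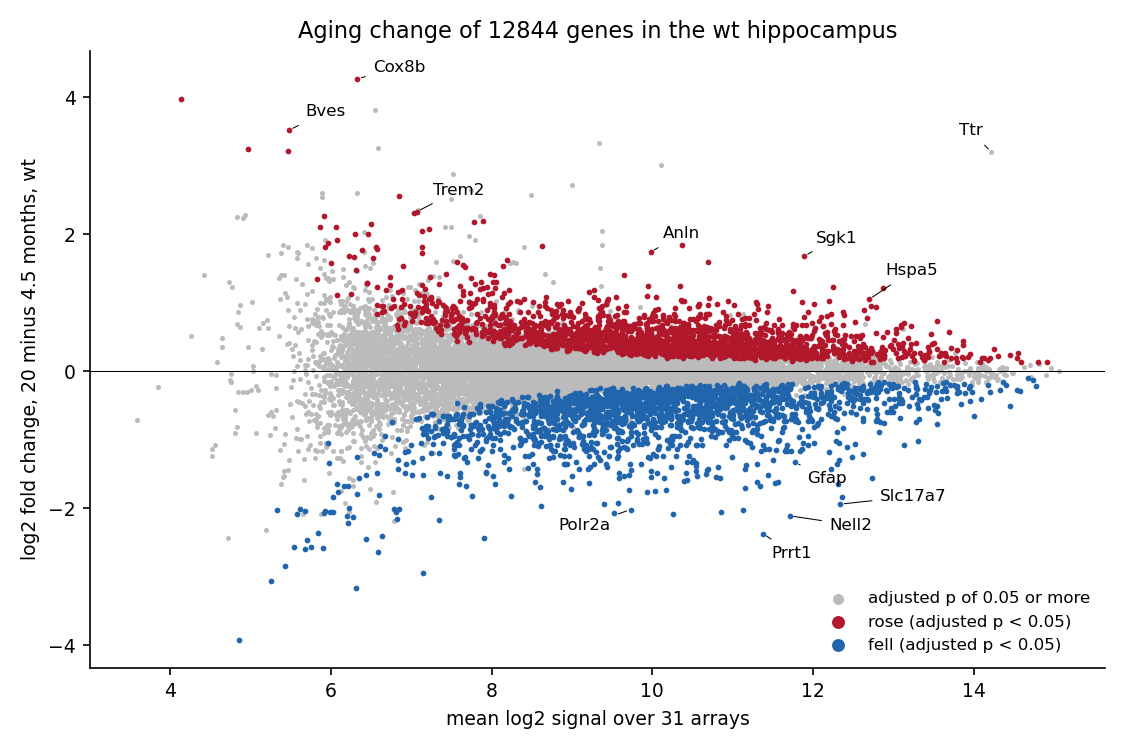
Change of each of the 12844 genes between 4.5 and 20 months in wt mice (log2, vertical axis) against its mean log2 signal over all 31 arrays (horizontal axis), with genes that rose in red, genes that fell in blue and the rest in grey. Of the 12 labelled genes, Slc17a7, Prrt1 and Nell2 are bright genes that fell by about 2, while Cox8b, Bves and Trem2 are dim genes that rose.

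The largest rises were found for genes of several unrelated kinds. The 15 in each direction named here had the largest changes after 50 was added to the signal, which holds back very dim genes, among called genes whose ages did not overlap, and changes are given without that addition. Anln, a scaffold protein that organizes actin and septins and is known from myelin as well as from dividing cells, read 9.59, 9.38 and 9.36 at 4.5 months and 11.17, 11.19 and 11.20 at 20 months. It rose by 1.74 ± 0.14 (SE; adjusted p = 1.73e-10), a fold of 3.34, and a further probe set of the gene rose by 1.38. Polr3k, a subunit of RNA polymerase III, read 8.85, 9.15 and 8.55 in the young and 10.56, 10.69 and 10.82 in the old mice. Its rise was 1.84 ± 0.18 (adjusted p = 1.07e-08), but its other 3 probe sets rose only by 0.29 to 0.59. In both genes the ages were far apart compared with the spread among mice of an age.

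Sgk1, a kinase that is induced by glucocorticoids and salt, read 11.09, 11.45 and 11.24 at 4.5 months and 13.14, 13.14 and 12.54 at 20 months, a rise of 1.68 ± 0.19 (adjusted p = 1.27e-07). Hspa4, a member of the heat shock protein family that helps to release substrates from Hsp70, rose by 1.60 ± 0.27 (adjusted p = 7.59e-05), with young mice at 9.52 to 10.06 and old mice at 10.82 to 11.91. Of the other 3 probe sets of Hspa4, 1 rose by 0.39 and the others gave -0.42 and -0.10 without a call. Lyz1, a lysozyme of phagocytes, read 7.99, 7.34 and 7.37 in the young and 9.84, 9.52 and 8.82 in the old mice (1.83 ± 0.46, adjusted p = 0.00381). Trem2, the lipid receptor of microglia, had 7.20, 5.55 and 3.50 at 4.5 months and 8.04, 7.64 and 7.56 at 20 months (2.33 ± 0.55, adjusted p = 0.00193), and the rise was 1.38 and still called without the third young mouse, but was not called when only the 6 arrays entered the fit (2.30).

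Most of the rest of the 15 largest rises were, like that of Trem2, of genes that were dim at 4.5 months. Gm19439 and Perp were brighter, at 9.74 to 10.32 and 8.49 to 9.15 at 20 months. Cox8b, a muscle form of a cytochrome oxidase subunit, read 3.47, 3.60 and 5.34 in the young and 6.99, 9.09 and 9.12 in the old mice, a change of 4.27 ± 1.31 (adjusted p = 0.0165). Bves, a membrane protein known from muscle and epithelium, read 2.65, 3.83 and 2.87 against 7.09, 6.54 and 6.28 (3.52 ± 0.75, adjusted p = 0.000583). Ptgis, the synthase of prostacyclin, rose by 2.56 ± 0.54, and Lrrc23, Dynlrb2 and 1110017D15Rik rose by 2.31, 2.19 and 2.07. Dynlrb2 and Lrrc23 are known from motile cilia. Hif3a, Perp and the predicted gene Gm19439 made up the rest with rises of 2.05, 1.62 and 2.18. Without mice 1 and 2 at 4.5 months the rises of Cox8b, Gm19439, Dynlrb2, Hif3a and Perp were 3.06, 2.0, 1.36, 1.11 and 1.02 and no longer passed the test, while the other 10 still did. Cox8b also lost the call without mouse 1 or 2 at 4.5 months or mouse 2 or 3 at 20 months, and Perp without mouse 2 of either age.

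The largest falls were steeper against their error, and several were of abundant neuronal genes. Slc17a7, which encodes VGLUT1, the transporter that loads glutamate into vesicles of the principal cells, read 13.41, 13.44 and 13.35 at 4.5 months and 11.43, 11.48 and 11.48 at 20 months. It fell by 1.94 ± 0.10 on the log2 scale (adjusted p = 1.05e-14), which is 3.83-fold. Prrt1, also known as SynDIG4, a protein bound to AMPA receptors, read 12.85, 12.96 and 12.96 in the young and 10.46, 10.73 and 10.45 in the old mice (-2.37 ± 0.12, adjusted p = 7.27e-15), and its further probe set gave -0.83 without a call. Nell2, a secreted neuronal protein with a part in axon guidance, fell by 2.11 ± 0.09 (adjusted p = 5.32e-16), from 12.94, 12.93 and 12.64 to 10.65, 10.73 and 10.80, and by 1.57 on its other probe set. Spock2, a proteoglycan of the extracellular matrix, had the smallest p of the named falls (-1.83 ± 0.07, adjusted p = 2.45e-17), with young mice at 13.31, 13.33 and 13.33 and old mice at 11.46, 11.50 and 11.51.

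The remaining falls of this group again separated the ages completely, as the rule for them required. Palm, a lipid-anchored protein of the plasma membrane that shapes dendrites, went from 11.98, 12.17 and 11.81 to 10.01, 9.98 and 9.88 (-2.03 ± 0.10). Gas7, an actin regulator of neurites, went from 12.42, 12.23 and 12.73 to 10.40, 10.42 and 10.36 (-2.06 ± 0.24). Mpp2, a membrane scaffold at synapses, fell by 1.94 and Sema6c, a transmembrane semaphorin, by 2.43, and Cntnap1 or Caspr, which holds the myelin loops to the axon beside the node of Ranvier, fell by 2.17 ± 0.24. Dtx3, Tmc8 and Rgl1, a ubiquitin ligase of the Deltex family, a transmembrane channel-like protein and a regulator of Ral GTPases, fell by 2.09, 2.95 and 1.96. Polr2a, the largest subunit of RNA polymerase II, went from 10.92, 11.01 and 10.97 to 8.84, 9.20 and 8.81 and by a like -1.91 on its other probe set. Atn1, a transcriptional corepressor, and Scaf1, a splicing-associated factor that binds the tail of Polr2a, fell by 1.93 and 2.07. All 15 passed the test with any single mouse left out and without mice 1 and 2 at 4.5 months.

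**Figure D2:**
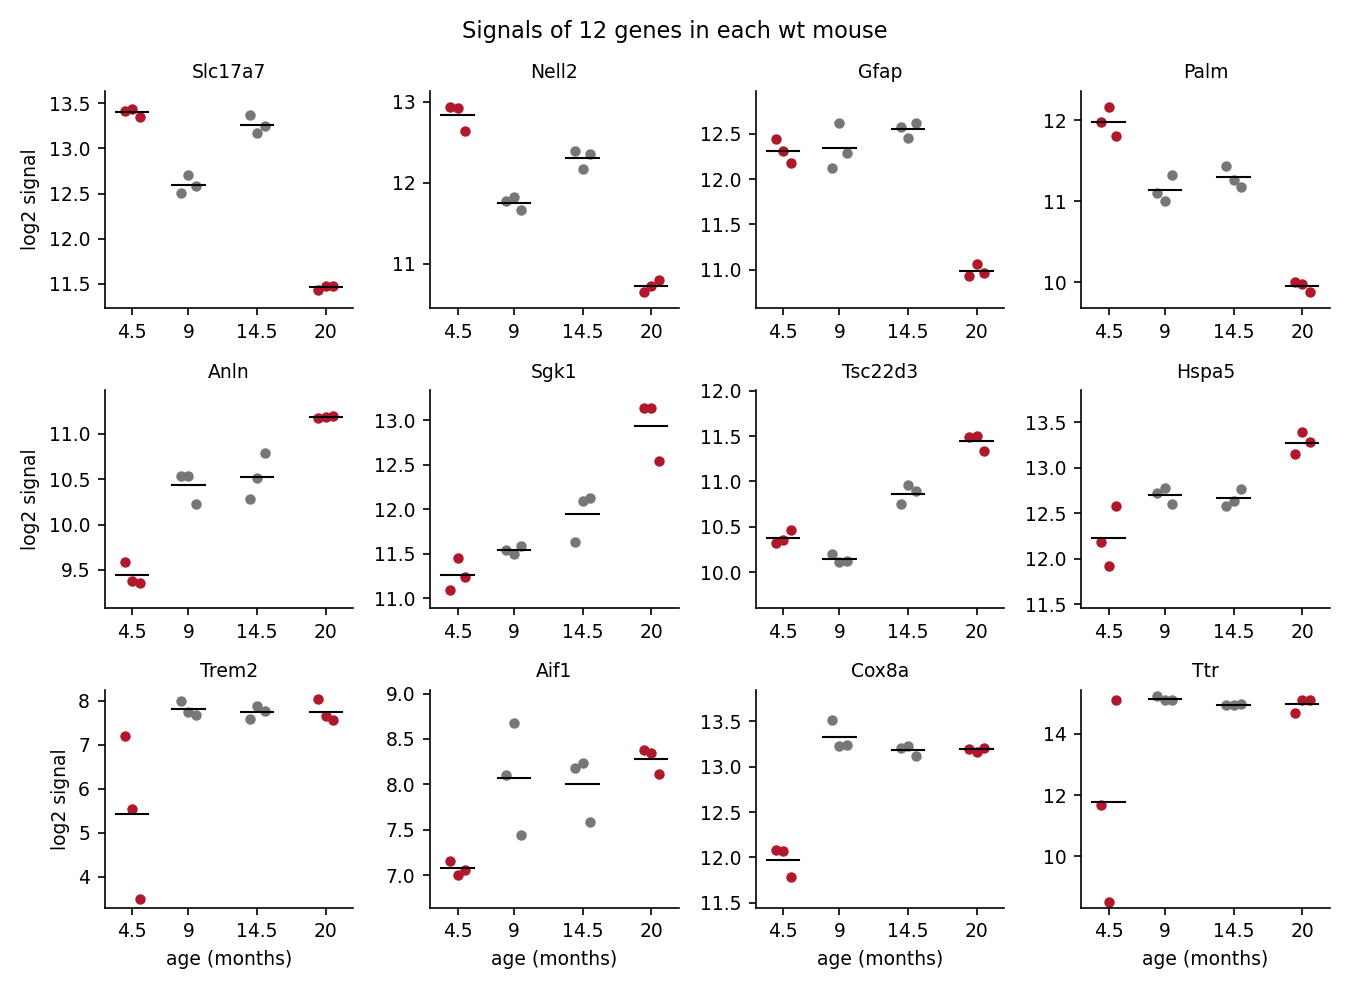
Log2 signal of 12 genes in each wt mouse at 4.5, 9, 14.5 and 20 months (1 point a mouse, horizontal bars for the mean of 3 mice), with the mice of 4.5 and 20 months in red and those between in grey. Slc17a7 lies near 13.4 at 4.5 months and 11.5 at 20 months, but its mice of 14.5 months lie above those of 9 months, and Ttr is low in mice 1 and 2 of 4.5 months and lies near the top of the scale in the other mice.

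Among genes of glutamate receptors falls outnumbered rises. Of 31 measured subunits and auxiliary proteins, 15 fell and 1 rose, with a median of -0.29 beside 0.03 over all genes. Among the NMDA receptor subunits, which pass calcium and start synaptic plasticity, Grin2b read 11.36, 11.38 and 11.34 at 4.5 months and 10.22, 10.22 and 10.39 at 20 months (-1.08 ± 0.13, adjusted p = 2.13e-07). Its further probe sets gave -0.30 and -0.18 without a call. Grin2d, the subunit of interneurons, read 9.21, 9.29 and 9.37 against 8.02, 7.67 and 8.15 (-1.35 ± 0.17), and Grin3a fell by 1.02 ± 0.17. Grin2a, the adult partner of Grin2b, read 8.65, 8.51 and 8.38 against 7.86, 7.57 and 7.94, which gave -0.72 ± 0.30 and an adjusted p of 0.0758.

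AMPA receptors carry the fast current of these synapses, and the pore subunits named here had smaller changes than the auxiliary proteins that traffic them. Gria2 read 13.72, 13.84 and 13.75 in the young and 13.45, 13.41 and 13.50 in the old mice (-0.31 ± 0.05, adjusted p = 1.19e-05). Gria1 fell by 0.25 ± 0.08 (adjusted p = 0.0144), a call that was lost without mouse 1 or mouse 2 at 4.5 months or mouse 1 at 20 months, without mice 1 and 2 at 4.5 months together (-0.04) and on values without quantile normalization (-0.13). Among the auxiliary proteins, Cnih2, a cornichon that slows the closing of the channel, read 13.05, 13.12 and 12.72 against 11.19, 11.38 and 11.42 (-1.64 ± 0.11, adjusted p = 1.54e-12). Cacng2 or stargazin fell by 0.94 ± 0.15, from 10.13, 10.35 and 9.81 to 9.31, 9.23 and 8.92. Shisa6, an auxiliary protein that keeps AMPA receptors at the synapse, was the member that rose, from 10.62, 10.37 and 9.82 to 11.05, 11.06 and 11.29 (0.87 ± 0.15, adjusted p = 5.8e-05), and its further probe set gave 0.04. Grik5, a kainate receptor subunit, fell by 1.5 ± 0.11 (adjusted p = 1.39e-11), from between 11.38 and 11.43 to between 9.72 and 9.98.

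Of 32 postsynaptic scaffold and signalling genes, 16 fell and 2 rose, with a median of -0.22. Dlg4, the gene of PSD-95, which anchors receptors in the postsynaptic density, read 11.96, 11.97 and 11.80 at 4.5 months and 10.97, 11.11 and 10.81 at 20 months (-0.95 ± 0.15, adjusted p = 1.58e-05). Shank3, a scaffold of the layer below, went from 12.32, 12.44 and 12.24 to 11.13, 11.23 and 11.20 (-1.14 ± 0.08, adjusted p = 1.74e-11), and Dlgap3 and Dlgap4, which link the layers, fell by 1.44 ± 0.12 and 1.07 ± 0.09. Nlgn2, the adhesion protein of inhibitory synapses, read 12.08, 12.11 and 12.11 against 10.87, 10.81 and 10.71 (-1.30 ± 0.07, adjusted p = 4.85e-15), but its further probe set gave 0.01. In each of these genes the highest old mouse lay well below the lowest young mouse.

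Genes that read the calcium signal moved both ways. Camk2a, the abundant calcium-calmodulin kinase of excitatory synapses, read 14.09, 14.15 and 13.98 in the young and 12.99, 13.09 and 13.07 in the old mice (-1.02 ± 0.15, adjusted p = 6.22e-06), and 3 of its other 4 probe sets also fell. Nrgn, or neurogranin, which holds calmodulin in dendrites, fell by 1.11 ± 0.12, from 13.35, 13.24 and 12.81 to at most 12.05. Both members that rose belong to calcineurin, the calcium-dependent phosphatase, and the rises were small. Its catalytic subunit Ppp3cb went from 13.40, 13.33 and 13.29 to 13.62, 13.51 and 13.62 (0.24 ± 0.06), and its regulatory subunit Ppp3r1 rose by 0.20 ± 0.06, a call that was lost without mouse 3 of either age (0.15 and 0.17).

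On the presynaptic side, 19 of 40 measured genes of vesicle release fell and 2 rose, with a median of -0.24 (-0.37 without mice 1 and 2 at 4.5 months). Syn1 and Syn2, the synapsins that tether vesicles in reserve, fell by 0.89 ± 0.07 (adjusted p = 4.47e-11) and 0.74 ± 0.07 (adjusted p = 2.8e-09). Syn1 read 13.48, 13.48 and 13.36 at 4.5 months and 12.52, 12.55 and 12.56 at 20 months. Rph3a, a partner of Rab3 on vesicles, went from 12.39, 12.54 and 12.20 to 11.17, 11.23 and 11.22 (-1.17 ± 0.07), and Bsn, or Bassoon, a scaffold of the active zone, fell by 1.14 ± 0.13. The vesicle proteins Syp and Sv2a fell by 0.60 ± 0.06 and 0.81 ± 0.06, with Syp at 13.05 to 13.19 in the young and at 12.43 to 12.57 in the old mice.

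Components of the fusion machine did not all fall. Vamp2, the vesicle SNARE, went from 13.69, 13.73 and 13.79 to 13.04, 12.92 and 13.03 (-0.74 ± 0.08) on its brightest probe set and rose by 0.51 on the other. Snap25, its partner in the plasma membrane, read 14.78, 14.79 and 14.73 against 14.91, 14.78 and 14.81 (0.06 ± 0.07, adjusted p = 0.579), whereas its other probe set fell by 1.24, and Syt1, the calcium sensor, gave -0.07 ± 0.05. Rab3a, a vesicle GTPase, rose by 0.33 ± 0.07, from 13.51, 13.47 and 13.61 to 13.92, 13.76 and 13.90, while its other probe set fell by 0.42. Rims2, of the active zone, rose by 0.30 ± 0.11, a call lost without mouse 1 at 4.5 months or mouse 1 or 3 at 20 months, and 2 of its other probe sets fell. Without mice 1 and 2 at 4.5 months neither rise was called, at 0.25 for Rab3a and 0.16 for Rims2.

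Of all the lists, the one named axon cytoskeleton had the highest share of falls. It also holds genes outside the cytoskeleton, such as Sncb and Aplp1. Of 34 measured genes 18 fell and 2 rose, with a median of -0.23, and the 3 old mice lay below all young mice in 22 of them, a separation found in 21.3% of all genes. Tubb4a, a beta-tubulin of neurons and oligodendrocytes, read 13.62, 13.50 and 13.31 at 4.5 months and 11.93, 11.87 and 11.95 at 20 months (-1.56 ± 0.07, adjusted p = 5.36e-16). Sncb, or beta-synuclein, went from 12.56, 12.49 and 12.37 to 10.88, 10.90 and 10.76 (-1.63 ± 0.09, adjusted p = 7.29e-14). Map1a, which binds microtubules in mature dendrites and axons, fell by 1.18 ± 0.08, and Aplp1, a relative of the amyloid precursor, by 0.43 ± 0.04 from 14.28 to 14.32 in the young. Mapt, the gene of tau, gave -0.15 ± 0.07 (adjusted p = 0.0881), and its other 3 probe sets fell by 0.53 to 1.11. Map2 of dendrites gave -0.01 ± 0.08, with 13.58 to 13.90 in the young and 13.66 to 13.78 in the old mice. The rise of Nefm, a neurofilament subunit, by 0.23 ± 0.08 (adjusted p = 0.0258) was lost without mouse 1 or 3 at 4.5 months or mouse 1 or 2 at 20 months.

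Ion channels moved both ways. Of 26 sodium, calcium and HCN channel genes, 8 fell and 2 rose (median -0.11), and of 37 potassium channel genes 7 fell and 5 rose (median -0.14), beside 15.4% and 15.8% of all genes. These medians were -0.18 to -0.06 and -0.19 to -0.08 over the alternatives. Kcnc1, the Kv3.1 channel of fast-spiking interneurons, read 11.46, 11.53 and 11.37 at 4.5 months and 10.02, 10.02 and 9.86 at 20 months (-1.49 ± 0.12, adjusted p = 8.54e-11), but its other probe sets gave 0.02 and -0.10. Kcnh3 of the ether-a-go-go family fell by 1.21 ± 0.09. Kcnn2, the SK2 potassium channel, was among those that rose, from 9.65, 9.97 and 9.78 to 10.58, 10.55 and 10.48 (0.74 ± 0.10, adjusted p = 1.12e-06). Hcn2, a pacemaker channel, fell by 1.16 ± 0.21, from 9.99, 9.80 and 9.83 to 8.75, 8.64 and 8.75, and Cacnb1, a calcium channel subunit, by 1.12 ± 0.13. Scn1a, the sodium channel of interneuron axons, rose by 0.50 ± 0.11, with young mice at 9.61 to 10.13 and old mice at 10.24 to 10.47, whereas Scn3a fell by 0.73 ± 0.12. The rises numbered 3 among potassium and 1 among the other channels without mouse 3 of either age.

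At the node of Ranvier and the axon initial segment, where action potentials start, 5 of 15 genes fell and 2 rose. Beside Cntnap1, the falls included Sptbn4, the spectrin beneath this membrane, from 10.90, 11.21 and 11.20 to 10.00, 10.02 and 10.20 (-1.03 ± 0.10, adjusted p = 4.36e-09), and Nfasc, its adhesion molecule, by 0.94 ± 0.12. The rises were of Hapln2 (1.11 ± 0.38), a protein of the matrix around the node, and Nrcam (0.19), and 0 or 1 gene of the list rose without any mouse other than mouse 1 at 20 months, and 0 without mice 1 and 2 at 4.5 months.

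Of 18 GABA genes 4 fell and 2 rose, beside 15.4% and 15.8% of all genes. Abat, which breaks down GABA, rose by 0.60 ± 0.07 (adjusted p = 1.61e-07), from 11.14, 11.20 and 11.19 to 11.84, 11.83 and 11.65, while Gabbr1, the GABA-B receptor subunit, fell by 0.44 ± 0.06 and Slc6a11, a glial GABA transporter, by 0.89 ± 0.18, the latter call being lost without mice 1 and 2 at 4.5 months (-0.70), when 2 members fell and 1 rose. A single member also rose without mouse 3 at 20 months. Of 24 interneuron and neuropeptide genes 6 fell and 3 rose. Nos1, which makes nitric oxide, read 10.65, 10.56 and 10.77 against 10.02, 9.89 and 10.11 (-0.65 ± 0.10, adjusted p = 1.17e-05). Pnoc, the precursor of nociceptin, rose by 0.86 ± 0.19, from 7.70, 7.68 and 7.98 to 8.85, 8.58 and 8.51 (0.67 without mice 1 and 2 at 4.5 months, not called), and Cnr1, the cannabinoid receptor of interneuron terminals, by 0.46 ± 0.10. Pvalb, the marker of basket cells, rose by 0.59 ± 0.16, but only by 0.38 and without a call when mouse 3 at 4.5 months was left out. Penk, the precursor of enkephalin, fell by 1.06 ± 0.21, and 11.52 in the same mouse 3 stood above 10.28 and 10.09 in its mates and above 9.53 to 9.62 in the old mice. Drd1, a dopamine receptor listed for neighbouring regions, likewise read 9.42 in mouse 3 and 8.44 and 8.28 in the others, and its fall of 1.26 ± 0.33 was 0.91 and no longer called without that mouse.

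The birth of granule neurons is the aging trait of the hippocampus that is best known, and 7 of 27 genes of neurogenesis fell while 1 rose, with a median of -0.15. Dcx, or doublecortin, the microtubule protein of migrating young neurons, read 9.10, 9.60 and 9.43 at 4.5 months and 8.86, 8.71 and 8.49 at 20 months (-0.69 ± 0.14, adjusted p = 0.000433). Dpysl3 and Dpysl5, collapsin response mediators of growing neurites, fell by 0.80 ± 0.10 and 1.01 ± 0.22. Cdk5r1, the activator of the kinase Cdk5, went from 12.31, 12.29 and 12.32 to 11.47, 11.38 and 11.55 (-0.84 ± 0.07, adjusted p = 2.36e-10), with its other 3 probe sets falling by 1.13 to 2.50, and Dab1, the reelin adaptor, fell by 0.41 ± 0.06. Several of these genes are also expressed in mature neurons. The member that rose was Cd24a, a surface protein of immature neurons and of ependyma, from 8.90, 7.86 and 9.21 to 9.39, 9.66 and 9.64, and it lost the call without mouse 2 at 4.5 months (0.51). Of 22 cell cycle genes 2 rose and 1 fell. Pcna, the sliding clamp of DNA replication and repair, rose by 0.44 ± 0.07 (adjusted p = 3.67e-05), from 11.20, 11.18 and 11.05 to 11.58, 11.67 and 11.50. Cdk4 rose by 0.53 ± 0.11, and Birc5, or survivin, fell by 2.85 ± 0.62 at a low signal. The rises of this list were 4 without mouse 1 and the falls 2 without mouse 3 at 4.5 months.

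Markers of the hippocampal fields fell in 5 of 25 cases and rose in 2, but 1 rose without mouse 1 or 2 at 4.5 months or mouse 2 at 20 months, and 0 without mouse 3 at 20 months. Wfs1, a marker of CA1 pyramidal cells, read 11.71, 11.69 and 12.12 against 11.30, 11.27 and 11.22 (-0.58 ± 0.11, adjusted p = 0.000247), and Neurod2, a transcription factor of pyramidal and granule cells, fell by 0.61 ± 0.12, or by 0.28 and without a call when mice 1 and 2 at 4.5 months were left out. Prox1 of the dentate gyrus and Fibcd1 of CA1 gave -0.08 ± 0.22 and 0.11 ± 0.12 and had ages that overlap. Rbfox3, the gene of the neuronal nuclear antigen NeuN, fell by 0.54 ± 0.08 (adjusted p = 5.75e-06), from 13.48, 13.52 and 13.37 to 12.90, 12.82 and 13.02. Only 2 field markers fell without mice 1 and 2 at 4.5 months.

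Protein folding had the highest share of rises of all the lists. Chaperones bind unfolded chains in the cytosol and the endoplasmic reticulum, and 22 of 32 measured genes rose while 3 fell, with a median of 0.40 against 0.03 over all genes. Hspa5, or BiP, the Hsp70 of the endoplasmic reticulum, read 12.18, 11.92 and 12.58 at 4.5 months and 13.15, 13.39 and 13.29 at 20 months (1.05 ± 0.11, adjusted p = 1.47e-08). Pdia3 and Canx, which act on glycoproteins in the same compartment, rose by 0.69 ± 0.09 and 0.56 ± 0.08, and Canx went from 12.47, 12.34 and 12.51 to 12.96, 12.97 and 13.07. Every old mouse exceeded every young mouse in 23 of the 32 genes, beside 24.3% of all genes.

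In the cytosol, Cct4, a subunit of the chaperonin that folds actin and tubulin, read 11.76, 11.74 and 11.85 against 12.33, 12.38 and 12.39 (0.58 ± 0.05, adjusted p = 1.57e-09). Hspa1b, the stress-inducible Hsp70, went from 10.24, 10.14 and 10.64 to 11.36, 11.15 and 11.29 (0.93 ± 0.14, adjusted p = 5.52e-06), though it is nearly identical to Hspa1a and the probes may not keep the pair apart. Cryab, a small heat shock protein of glia, rose by 0.78 ± 0.12, with young mice at 11.01 to 11.39 and old mice at 11.93 to 12.08. Dnajc5, the cysteine string protein of synaptic vesicles, and Dnajb5 were among the 3 that fell, by 0.73 ± 0.08 and 0.88 ± 0.14. The number of chaperone genes that rose was 13 without mice 1 and 2 at 4.5 months.

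The proteasome, which degrades ubiquitin-tagged proteins, had 18 of 32 subunits that rose and 3 that fell, with a median of 0.24. Psmc1, an ATPase of the regulatory cap, read 11.05, 11.05 and 10.93 at 4.5 months and 11.58, 11.48 and 11.55 at 20 months (0.53 ± 0.06, adjusted p = 1.21e-07). Psma1 of the outer ring rose by 0.67 ± 0.07 on its brightest probe set and fell by 0.83 on the other, and Psmb3 of the inner ring rose by 0.61 ± 0.08 and by 1.07. Psmb7, a catalytic subunit, went the other way, from 13.40, 13.15 and 13.39 to 12.84, 12.91 and 12.68 (-0.50 ± 0.07), as did Psma4 by 0.37 ± 0.09. With mice 1 and 2 at 4.5 months left out, 10 subunits rose. Lysosome and autophagy genes were mixed, with 7 of 32 up and 5 down. Grn, the lysosomal progranulin, rose by 0.41 ± 0.07 and by 0.36 and 0.41 on its other probe sets, and Ppt1, a lysosomal thioesterase, by 0.50 ± 0.09, while Ulk1, the kinase that starts autophagy, fell by 0.67 ± 0.10 from 10.55, 10.73 and 10.73 to 10.09, 10.01 and 9.90. The falls of this list were 3 without mouse 3 at 4.5 months, without mouse 1 or 3 at 20 months or without quantile normalization, and the rises were 4 without mouse 2 at 20 months.

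Many genes of mitochondrial respiration rose, most of them by little. Of 54 measured genes of oxidative phosphorylation 29 rose and 4 fell, with a median of 0.20, and the old mice lay above the young in 36. Cox8a, the common form of the subunit of cytochrome oxidase, read 12.08, 12.07 and 11.78 at 4.5 months and 13.20, 13.16 and 13.21 at 20 months (1.21 ± 0.07, adjusted p = 4.67e-13), with 1.11 on its other probe set. In complex I, Ndufs4 and Ndufs5 rose by 0.75 ± 0.08 and 0.72 ± 0.07, and in complex III Uqcr10 and Uqcrh rose by 0.87 ± 0.09 and 0.61 ± 0.06. Uqcrh went from 12.66, 12.58 and 12.63 to 13.31, 13.24 and 13.15. Sdhc, a membrane anchor of complex II, had the largest of the 4 falls, from 11.61, 11.39 and 11.49 to 10.61, 10.86 and 10.68 (-0.78 ± 0.10), and 2 genes fell without mice 1 and 2 at 4.5 months or without quantile normalization.

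Antioxidant genes rose in 11 and fell in 5 of 27 cases. Sod1, the cytosolic superoxide dismutase, read 11.87, 12.10 and 12.18 against 12.62, 12.52 and 12.60 (0.53 ± 0.10, adjusted p = 7.62e-05), but another of its probe sets fell by 0.59. Cat, or catalase, rose by 0.61 ± 0.15 and by 0.41 on its other probe set, and the metallothionein Mt1 by 0.68 ± 0.15, from 12.86, 12.99 and 12.59 to 13.48, 13.54 and 13.45. Both subunits of the enzyme that limits glutathione synthesis fell, Gclm by 0.68 ± 0.14 and Gclc by 0.41 ± 0.09, and Gclc read 10.97 to 11.20 in the young and 10.69 to 10.71 in the old mice. Without mice 1 and 2 at 4.5 months 6 members rose and 1 fell, and the falls of Gclm (-0.54) and Gclc (-0.28) were not called. The falls were also 2 without mouse 1 at 4.5 months or mouse 3 at 20 months.

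Enzymes of glycolysis and the TCA cycle had no common direction, with 7 of 32 up and 9 down, and 14 rose without quantile normalization. Pfkl, a phosphofructokinase, read 12.65, 12.57 and 12.50 at 4.5 months and 11.32, 11.49 and 11.40 at 20 months (-1.17 ± 0.08, adjusted p = 1.46e-12). Hk1, the hexokinase of brain, and Eno2, the enolase of neurons, fell by 0.63 ± 0.05 and 0.40 ± 0.06, while Fh1 and Idh2, enzymes of the mitochondrial cycle, rose by 0.48 ± 0.07 and 0.45 ± 0.12. The number of falls was 5 without mouse 3 at 20 months, and 3 enzymes rose without mice 1 and 2 at 4.5 months.

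**Figure D3:**
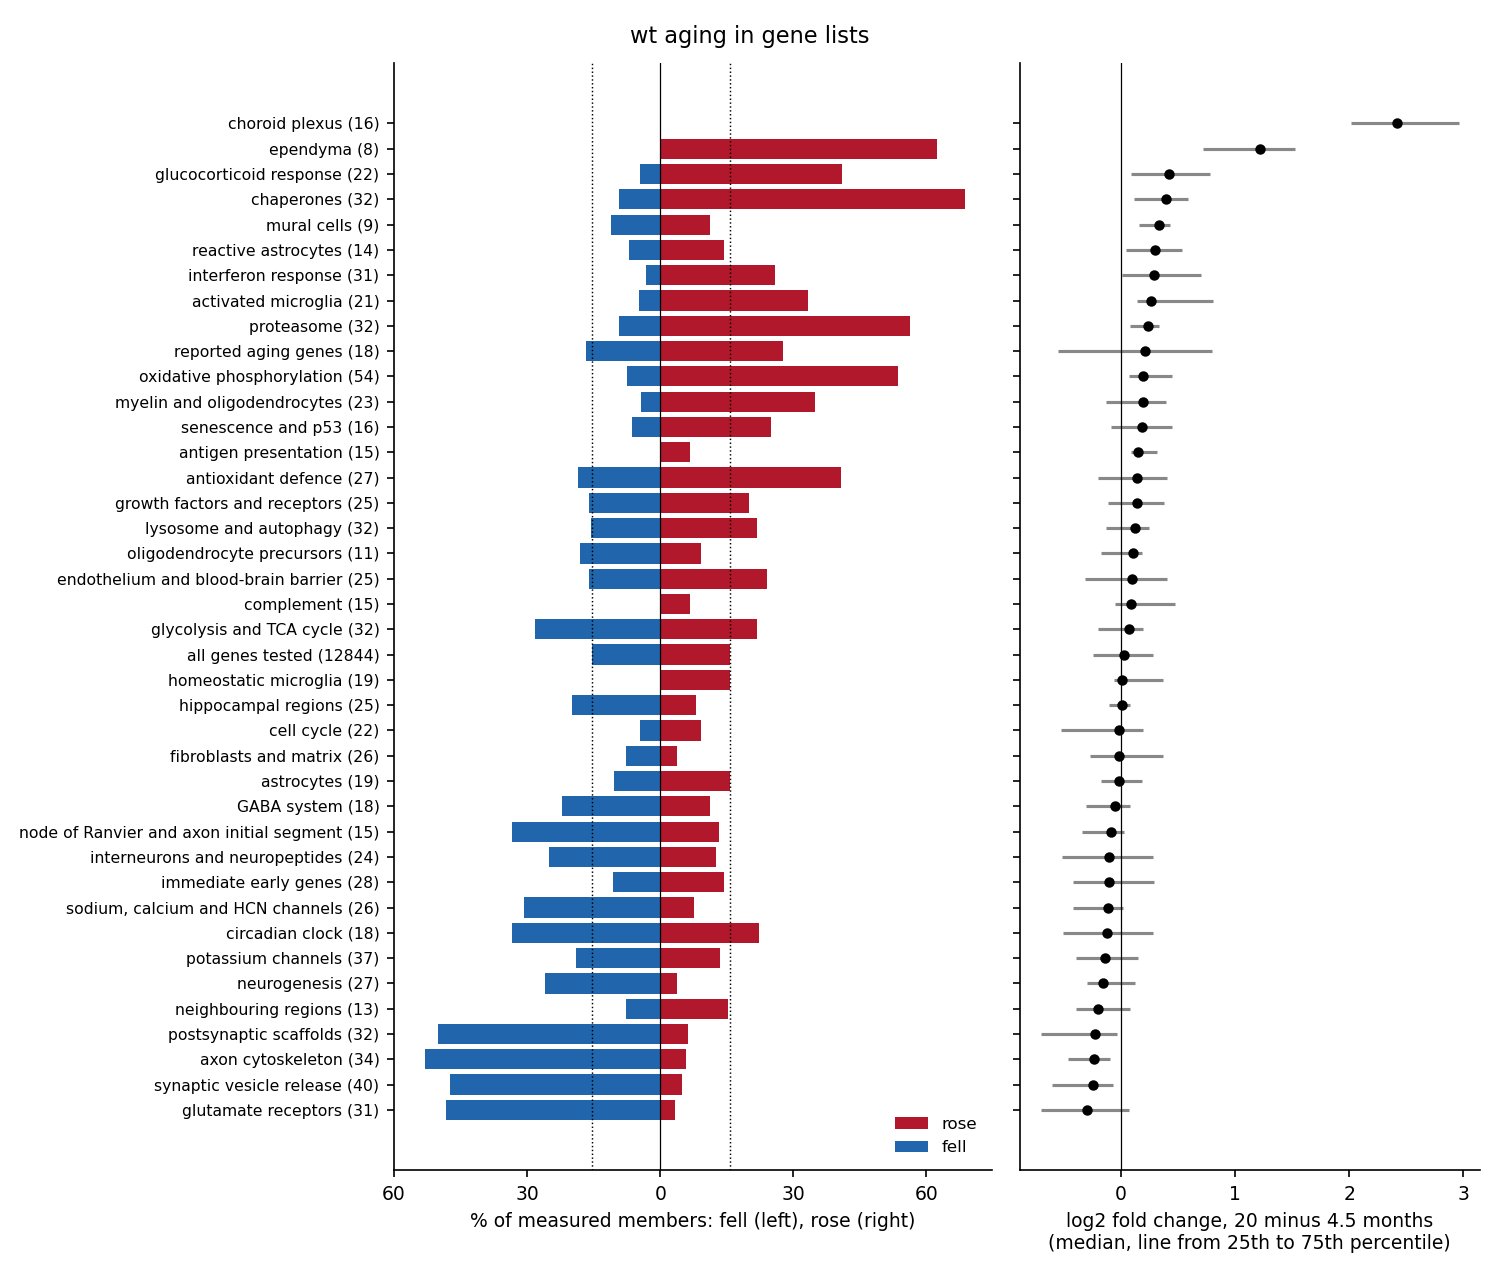
Left panel, percent of the measured members of each list of at least 8 genes that rose (red, to the right) and that fell (blue, to the left) between 4.5 and 20 months in wt mice, with dotted lines for the shares over all 12844 genes (15.8% and 15.4%); right panel, the median log2 change of each list with a line from its percentile 25 to its percentile 75. Chaperones, proteasome and oxidative phosphorylation reach far past the line on the side of the rises, and glutamate receptors, scaffolds, vesicle release and axon cytoskeleton on the side of the falls.

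Genes that are known to respond to glucocorticoids, the stress hormones that the adrenal releases and to which the hippocampus is rich in receptors, rose in 9 of 22 cases and fell in 1, with a median of 0.42 (0.27 with the filter at percentile 60). Beside Sgk1 these included Tsc22d3, or GILZ, which read 10.32, 10.35 and 10.46 at 4.5 months and 11.49, 11.50 and 11.34 at 20 months (1.07 ± 0.10, adjusted p = 4.65e-09). A further probe set of Tsc22d3 rose by 1.60 and the last gave -0.06. Errfi1, an inhibitor of the EGF receptor, went from 10.30, 10.29 and 10.00 to 11.02, 11.04 and 10.67 (0.71 ± 0.12), and Nfkbia, the inhibitor of NF-kappa-B, rose by 0.69 ± 0.11. Plin4, which coats lipid droplets, rose by 1.81 ± 0.43, from 6.90, 5.25 and 7.22 to 8.0, 8.32 and 8.48, and was not called without mice 1 and 2 at 4.5 months (1.05).

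The member that fell no longer did without mice 1 and 2 at 4.5 months, when the count of falls was 0. Fkbp5, a cochaperone of the receptor and a common readout of the hormone, read 10.07, 10.30 and 10.46 in the young and 10.37, 10.33 and 10.33 in the old mice (0.07 ± 0.11, adjusted p = 0.685). The glucocorticoid receptor Nr3c1 gave -0.11 ± 0.09 (adjusted p = 0.385), although its old mice at 10.87 to 10.91 all lay below its young mice at 10.94 to 11.03. The mineralocorticoid receptor Nr3c2 passed only narrowly, at 0.35 ± 0.13 (adjusted p = 0.0468). Its change was 0.11 and not called without mouse 3 at 4.5 months, whose 10.46 lay below the 11.18 and 11.19 of its mates. The call was also lost without mouse 2 or mouse 3 at 20 months. It was lost as well without the filter, without the trend, with the replicate block, and with the 12 adult wt or 6 wt arrays alone. Of the p53 and senescence genes 4 of 16 rose and 1 fell, beside 15.8% and 15.4% of all genes. Ccng1, Sesn1 and Trp53inp1, which are targets of p53, rose by 0.43 ± 0.08, 0.44 ± 0.10 and 0.73 ± 0.17, while Cdkn1a, the cell cycle inhibitor p21, read 8.43, 7.69 and 8.22 against 9.03, 9.06 and 7.71 (0.49 ± 0.25, adjusted p = 0.156) and rose without mouse 3 at 20 months (0.93). The fall, of Sesn2 by 0.71 ± 0.22, was not called without mouse 1 of either age or mouse 2 at 20 months.

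The circadian clock is a loop in which Clock and Bmal1 drive the genes of their own inhibitors, the Per and Cry proteins, and of output factors such as Dbp. Of 18 clock genes 4 rose and 6 fell. The hour at which the mice were killed is not given in the sources used here. Dbp read 10.87, 10.95 and 11.14 at 4.5 months and 10.40, 10.46 and 10.54 at 20 months (-0.52 ± 0.13, adjusted p = 0.0038) and fell by 1.03 on its other probe set. Per1 went from 9.98, 10.11 and 9.78 to 8.96, 9.5 and 9.00 (-0.80 ± 0.17), a call lost without mice 1 and 2 at 4.5 months (-0.63), and Ciart, a repressor of the loop, from 8.31, 8.48 and 8.77 to 7.73, 7.80 and 7.68 (-0.78 ± 0.15, adjusted p = 0.000158). Nr1d1, or Rev-erb alpha, fell by 1.00 ± 0.26, but by 0.70 and without a call when mouse 3 at 20 months was left out.

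Tef, an output factor related to Dbp, and Csnk1e, the kinase of the Per proteins, fell by 0.52 ± 0.06 and 0.45 ± 0.08. The rises were of Bhlhe40 (0.78 ± 0.10, adjusted p = 8.57e-07), from 10.60, 10.51 and 10.22 to 11.36, 11.20 and 11.13, and of Cry1 by 0.87 ± 0.20, from 8.03, 7.43 and 7.42 to 8.86, 8.22 and 8.40, both inhibitors of the loop. Clock rose by 0.49 ± 0.14 (not called without mice 1 and 2 at 4.5 months), with its other 3 probe sets at -0.18 to -0.04 without a call.

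Clock and Bmal1 bind the E-box CACGTG, which reads the same on both strands. In promoter windows of RefSeq (GRCm38.p6, from 250 bases before to 50 after a start site), 8.09% of 27025 genes hold it, as do 4 of the 15 clock genes that have a window, 26.7%. The D-box TTATGTAA or TTACGTAA, searched on both strands, is held by 1.23% of genes and 1 of these 15. The promoters of Ciart, which fell and holds 3 E-boxes, and of Cry1, which rose and holds 1, are printed to show the same element in genes that moved in opposite directions (of the 4 genes with it, Ciart, Per1 and Tef fell and Cry1 rose), with the E-boxes in capitals.
Ciart, chr3:95882179-95882478, minus strand: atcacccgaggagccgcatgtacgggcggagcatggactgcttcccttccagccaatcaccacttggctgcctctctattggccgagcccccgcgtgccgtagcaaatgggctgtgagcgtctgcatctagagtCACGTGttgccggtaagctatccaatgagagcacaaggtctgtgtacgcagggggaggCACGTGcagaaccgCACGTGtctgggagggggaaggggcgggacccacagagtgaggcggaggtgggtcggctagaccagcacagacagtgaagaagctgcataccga
Cry1, chr10:85185005-85185304, minus strand: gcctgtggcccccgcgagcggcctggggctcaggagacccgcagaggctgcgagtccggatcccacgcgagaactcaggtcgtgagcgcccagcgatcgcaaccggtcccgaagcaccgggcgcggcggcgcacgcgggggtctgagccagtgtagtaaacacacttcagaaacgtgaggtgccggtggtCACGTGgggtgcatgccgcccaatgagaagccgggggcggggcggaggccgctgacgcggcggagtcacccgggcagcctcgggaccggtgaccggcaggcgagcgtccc
A match of letters is no evidence that the site was bound in these mice.

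Immediate early genes, which neurons switch on within minutes of activity, depended on single mice. Of 28 genes 4 rose and 3 fell, while 7 fell without mouse 3 at 4.5 months, 1 fell without mice 1 and 2 at 4.5 months, and 2 rose without mouse 2 at 20 months. Arc read 11.33, 11.31 and 9.09 in the young and 10.28, 9.81 and 9.5 in the old mice, and Fos read 10.75, 10.48 and 8.82 against 10.09, 9.68 and 8.95, so that mouse 3 lay lowest for both and neither passed the test. Without it Arc fell by 1.46. Jund, a Jun family member of steady expression, fell by 1.36 ± 0.14 (adjusted p = 1.2e-08), from 13.09, 13.31 and 13.25 to 11.90, 11.86 and 11.82. Egr1 fell by 0.69 ± 0.13, which was 0.46 and not called without mice 1 and 2 at 4.5 months, and its relative Egr3 rose by 0.49 ± 0.08, from 11.95, 12.03 and 11.94 to 12.60, 12.34 and 12.44. Of 25 growth factors and receptors 5 rose and 4 fell, and 2 rose without mouse 2 at 20 months or without mice 1 and 2 at 4.5 months. Bdnf, a neurotrophin whose gene is driven by activity, rose by 0.43 ± 0.13 (adjusted p = 0.0118), a call lost without mouse 2 at 20 months (0.38) and without mice 1 and 2 at 4.5 months (0.49), and its further probe set gave -0.43 without a call. Fgfr1, a fibroblast growth factor receptor, fell by 1.01 ± 0.11, and the insulin receptor Insr rose by 0.48 ± 0.11.

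Genes of microglia fall into those that mark resting cells and those known from an activated state. Of 19 homeostatic genes 3 rose, near the 15.8% of all genes, and Cx3cr1, P2ry12 and Csf1r gave -0.02 ± 0.11, 0.01 ± 0.08 and -0.11 ± 0.06. Aif1, the cytoskeletal protein Iba1, was among the rises, from 7.16, 7.0 and 7.06 to 8.38, 8.34 and 8.11 (1.21 ± 0.25, adjusted p = 0.000415). Laptm5, of the lysosomal membrane, rose by 0.81 ± 0.13, but of its other 4 probe sets 1 fell by 0.87 and none rose with a call. Of 21 genes of activated microglia 7 rose and 1 fell, with a median of 0.27 (0.42 without mouse 3 at 20 months), and the difference between the lists was not tested. Besides Trem2, these were led by Fcgr3, an Fc receptor, from 8.5, 8.22 and 8.26 to 9.00, 9.17 and 8.88 (0.69 ± 0.13, adjusted p = 0.000107), and by Ctsz and Cd9, a lysosomal protease and a tetraspanin, with rises of 0.81 ± 0.17 and 0.84 ± 0.19. Every old mouse lay above every young mouse in Aif1, Fcgr3, Ctsz and Cd9, and Ctsz was not called without mice 1 and 2 at 4.5 months (0.70).

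Complement, the cascade that tags synapses and debris for uptake, rose in 1 of 15 genes, beside 15.8% of all genes. C1qb read 10.29, 10.33 and 9.96 at 4.5 months and 11.02, 10.84 and 10.81 at 20 months (0.69 ± 0.14, adjusted p = 0.000304), and its other 2 probe sets rose by 0.77 and 0.91. C1qa, which forms the same complex, gave 0.21 ± 0.09 (adjusted p = 0.0745), with 10.86 to 10.97 against 11.05 to 11.21. Of 15 genes of antigen presentation only B2m, the light chain of MHC class I, rose (0.38 ± 0.12, adjusted p = 0.0176), by 0.94 on its other probe set, and it lost the call without mouse 3 at 4.5 months or mouse 1 at 20 months. Of 19 lymphocyte genes only Cd8a and Ighm were bright enough to be tested, and gave 0.27 ± 0.44 and -0.01 ± 0.22.

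Interferon-stimulated genes are switched on when cells sense viral or misplaced nucleic acid, and 8 of 31 rose while 1 fell, with a median of 0.29 that ran from 0.18 with 50 added and 0.19 without mouse 1 at 20 months to 0.52 with the filter at percentile 60. Ifi27 read 10.18, 9.89 and 10.08 at 4.5 months and 10.86, 11.28 and 11.10 at 20 months (1.03 ± 0.25, adjusted p = 0.00314), and its other probe set rose by 0.93. Trim30a, a ubiquitin ligase induced by interferon, went from 6.41, 6.66 and 7.0 to 7.65, 7.53 and 7.67 (0.93 ± 0.25), and Xaf1 from 8.43, 7.77 and 7.42 to 8.81, 8.95 and 8.55 (0.89 ± 0.25). Ifit3 and Irgm1 rose by 0.64 ± 0.23 and 0.60 ± 0.21, and both calls were lost without mouse 2 of either age, among others. Stat2, which carries the interferon signal, fell by 0.63 ± 0.19, a call lost without mouse 2 of either age. The number of rises was 5 without mouse 1 and 3 without mouse 2 at 4.5 months, 4 without mouse 1 and 3 without mouse 2 at 20 months, 4 without quantile normalization or without the filter, and 1 without mice 1 and 2 at 4.5 months. Ifi27 and Trim30a were not called without the latter pair (1.00 and 0.62), nor Xaf1 without mouse 3 at 4.5 months (0.67).

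Many genes of this response are known to carry the interferon-stimulated response element, searched as GAAA, any 2 bases and GAAA again, which reads TTTC, any 2 bases and TTTC on the other strand. It was found in the promoter windows of 16 of the 37 genes of the interferon and antigen lists that have one (43.2%), beside 3.99% of all 27025 genes. The windows of Ifit3, Irgm1 and Trim30a, which rose, and of Ifit1, which did not pass the test (-0.04 ± 0.65), are printed with each element in capitals, to show that not every gene with the element passed the test. Of the 16 genes with an element 6 rose, 9 were not called, and Stat2 fell. In the whole lists 8 of 31 interferon and 1 of 15 antigen genes rose, beside 15.8% of all genes. Whether genes with the element rose more often was not tested. In Irgm1 a pair of elements overlaps.
Ifit3, chr19:34583279-34583578, plus strand: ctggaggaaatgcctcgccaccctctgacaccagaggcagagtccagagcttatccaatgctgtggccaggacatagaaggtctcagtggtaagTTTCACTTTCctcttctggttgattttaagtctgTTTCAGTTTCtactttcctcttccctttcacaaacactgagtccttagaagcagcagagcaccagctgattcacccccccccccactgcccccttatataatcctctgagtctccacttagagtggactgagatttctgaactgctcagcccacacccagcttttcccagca
Irgm1, chr11:48871371-48871670, minus strand: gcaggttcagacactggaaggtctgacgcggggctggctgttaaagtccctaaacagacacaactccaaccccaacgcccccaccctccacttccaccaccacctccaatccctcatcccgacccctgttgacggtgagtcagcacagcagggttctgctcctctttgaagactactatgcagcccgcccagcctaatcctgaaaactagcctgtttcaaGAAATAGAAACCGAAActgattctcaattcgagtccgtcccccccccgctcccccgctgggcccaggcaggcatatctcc
Trim30a, chr7:104465144-104465443, minus strand: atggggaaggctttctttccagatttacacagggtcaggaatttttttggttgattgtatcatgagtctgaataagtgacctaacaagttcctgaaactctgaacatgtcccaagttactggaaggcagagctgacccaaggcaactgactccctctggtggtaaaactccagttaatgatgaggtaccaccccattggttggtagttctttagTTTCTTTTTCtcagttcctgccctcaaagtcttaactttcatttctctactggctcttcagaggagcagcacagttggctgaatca
Ifit1, chr19:34640639-34640938, plus strand: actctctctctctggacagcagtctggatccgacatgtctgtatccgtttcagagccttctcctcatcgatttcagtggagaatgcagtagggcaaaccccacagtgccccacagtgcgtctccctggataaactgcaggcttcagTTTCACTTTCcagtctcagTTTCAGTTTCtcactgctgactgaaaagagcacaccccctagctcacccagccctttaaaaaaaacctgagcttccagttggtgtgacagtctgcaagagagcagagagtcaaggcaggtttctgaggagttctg
The matched letters do not show that a factor was bound.

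Astrocyte genes changed little as a group, with 3 of 19 up and 2 down, beside 15.8% and 15.4% of all genes. Gjb6, a gap junction protein, rose by 0.98 ± 0.13 (adjusted p = 7.72e-07), from 10.62, 10.83 and 10.75 to 11.90, 11.85 and 11.41, and Glul, glutamine synthetase, by 0.44 ± 0.08. Slc1a2, or GLT-1, the main glutamate transporter, read 14.81, 14.94 and 14.75 in the young and 14.61, 14.54 and 14.53 in the old mice (-0.27 ± 0.05, adjusted p = 0.000275), and was not called without mice 1 and 2 at 4.5 months (-0.18). Aqp4, the water channel, gave 0.15 ± 0.09. The count of rises was 5 without mouse 2 of either age, and that of falls 6 without mouse 3 and 0 without mice 1 and 2 at 4.5 months.

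Among 14 genes of reactive astrocytes 2 rose and 1 fell. Gfap, the filament protein by which such cells are usually recognized, fell on its brightest probe set, from 12.44, 12.31 and 12.18 to 10.93, 11.06 and 10.97 (-1.33 ± 0.10, adjusted p = 3.28e-11). Its other probe sets fell by 1.17 and rose by 0.53, so that the array gives no single direction for this gene. Serpina3n, a secreted protease inhibitor, rose by 0.84 ± 0.15, from 9.29, 9.00 and 8.66 to 9.77, 9.74 and 9.95, and Osmr, the oncostatin M receptor, by 1.01 ± 0.25, from 7.05 to 7.33 in the young to 8.01 to 8.26 in the old mice. Vim gave 0.54 ± 0.22 (adjusted p = 0.0645) on its brightest probe set, while its other probe sets rose by 0.91 and 0.95.

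In the oligodendrocyte lineage 8 of 23 myelin genes rose and 1 fell, with a median of 0.20 that was 0.07 without mouse 3, 0.41 without mouse 1 and 0.45 without mice 1 and 2 at 4.5 months. Ermn, a cytoskeletal protein of myelin, went from 10.57, 10.12 and 9.98 to 10.94, 11.11 and 11.04 (0.81 ± 0.20, adjusted p = 0.0023), and Car2 and Olig1 rose by 0.40 ± 0.09 and 0.37 ± 0.08. Mbp, the major structural protein, gave -0.13 ± 0.20. Sox10, the transcription factor of the lineage, fell by 0.75 ± 0.18, from 10.09, 9.81 and 9.43 to 8.98, 9.05 and 9.03, by 1.18 and 1.23 on its other probe sets, and was not called without mice 1 and 2 at 4.5 months (-0.40). The rises numbered 4 without mouse 2 or mouse 3 at 4.5 months and 5 without mouse 2 or mouse 3 at 20 months or without mice 1 and 2 at 4.5 months, and the falls numbered 3 without mouse 3 at 4.5 months. Of 11 genes of precursors 1 rose and 2 fell, and 2 rose without mouse 1, or mice 1 and 2, at 4.5 months. C1ql1 fell by 1.65 ± 0.18 (adjusted p = 4.62e-08), from 8.41, 8.55 and 8.38 to 7.07, 6.67 and 6.66, and Cspg4, or NG2, by 0.92 ± 0.19, while Bcas1, of newly forming oligodendrocytes, rose by 0.66 ± 0.13.

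Blood vessels and the linings of the ventricle showed rises and falls. Of 25 endothelial and barrier genes 6 rose and 4 fell, beside 15.8% and 15.4% of all genes. Slc2a1, the glucose transporter GLUT1 of the blood-brain barrier, read 10.86, 11.05 and 11.25 at 4.5 months and 12.12, 12.05 and 11.94 at 20 months (0.98 ± 0.11, adjusted p = 3.19e-08), with 0.82 and 0.36 on its other probe sets. Slc16a1, a lactate transporter, rose by 0.66 ± 0.13, and the junction protein Cdh5 fell by 0.96 ± 0.26, from 7.84, 7.40 and 7.82 to 6.51, 7.05 and 6.64. The rises were 2 without mouse 3 at 4.5 months and 3 without mouse 2 at 20 months or without mice 1 and 2 at 4.5 months, and the falls were 2 without mouse 2 at 4.5 months, mouse 3 at 20 months or mice 1 and 2 at 4.5 months. Of 26 fibroblast and matrix genes 1 rose and 2 fell, and 0 rose without mouse 2 and 1 fell without mouse 2 or 3 at 4.5 months or mouse 3 at 20 months. Of 9 genes of mural cells 1 rose and 1 fell, Abcc9 by 0.71 ± 0.21 and Notch3 by 0.56 ± 0.16, and Abcc9 lost the call without mouse 3 at 4.5 months or mouse 2 at 20 months. Sparc, a matrix glycoprotein of vessels and glia, fell by 0.60 ± 0.12, from 12.20, 12.25 and 12.35 to 11.68, 11.59 and 11.75.

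Choroid plexus genes varied widely among the mice of both ages. The median of 16 genes was 2.42, but 0 passed limma's adjusted test, and 6 were higher at an unadjusted p under 0.05. Ttr, transthyretin, read 11.67, 8.52 and 15.11 in the young and 14.69, 15.11 and 15.11 in the old mice (3.20 ± 1.23, adjusted p = 0.0563), with its brightest values at the upper end of the scale, while Clic6, a chloride channel protein, read 7.71, 4.21 and 10.01 against 9.05, 11.53 and 11.33, and the median of the 16 genes was 0.21 without mice 1 and 2 at 4.5 months. It was 1.60 without mouse 2 at 4.5 months, 2 members rose without mouse 1 at 20 months and 5 without mouse 3 at 4.5 months. Ependyma, the ciliated lining next to it, had 5 of 8 genes that rose, with a median of 1.22. Rarres2, or chemerin, went from 7.30, 7.04 and 7.37 to 8.33, 8.48 and 8.51 (1.20 ± 0.31, adjusted p = 0.00431), and Tmem212 and Ak7 rose by 1.52 ± 0.40 and 1.55 ± 0.47, calls that were lost without mouse 2 at 4.5 months and, for Ak7, mouse 3 at 20 months. None of the 3 was called without mice 1 and 2 at 4.5 months (1.08, 1.31 and 1.05). The rises numbered 2 without mouse 2 at 4.5 months, 3 without mouse 3 of either age and 1 without mice 1 and 2 at 4.5 months, the mice whose choroid plexus level was lowest. Of the 3 blood genes tested, S100a8, S100a9 and Alas2 gave 1.08 ± 0.61, 0.36 ± 1.12 and 0.02 ± 0.49. Of 13 genes of neighbouring regions 2 rose, Zic1 by 1.25 ± 0.45 and Lhx9 by 0.65 ± 0.19, and Drd1 fell. Zic1 lost the call without any single mouse other than mouse 3 at 20 months, and Lhx9 without mouse 3 at 4.5 months or mouse 1 at 20 months.

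Of 18 genes that earlier work on the aging brain has often reported, 5 rose and 3 fell, beside 15.8% and 15.4% of all genes. Apod, a lipid carrier of glia, read 12.44, 11.85 and 11.62 against 13.22, 13.09 and 12.54 (0.98 ± 0.27, adjusted p = 0.00737), and Lyz2, Neat1, B2m and Serpina3n were the other rises, by 0.87, 1.03, 0.38 and 0.84. Lyz2 was called without mouse 3 at 20 months but not without any other single mouse, and Neat1 without mouse 2 at 4.5 months but not without any other. Gfap, Sparc and Dcx were the falls. Il33, Ctss and Cd52 gave 0.33, 0.19 and 0.67 without a call, and Col1a1 and Col3a1 gave -1.09 ± 0.88 and -0.42 ± 1.01. The rises numbered 2 without mouse 3 at 4.5 months or mouse 1 at 20 months, and 3 without mouse 1 at 4.5 months, mouse 2 at 20 months or mice 1 and 2 at 4.5 months.

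The same genes were read in other mice. In Tg mice, which share none of the arrays, 3032 probe sets (11.3%) were higher and 3052 (11.4%) were lower at 20 than at 4.5 months. Of the 3958 wt rises 97.1% had the same sign in Tg mice, beside 53.1% of all probe sets with that sign, and 2283 were called higher in both, which is 57.7% of the wt and 75.3% of the Tg rises. Of the 3668 wt falls 96.9% had the same sign and 2362 were called in both, 64.4% of the wt and 77.4% of the Tg falls, and 1 wt fall and 0 wt rises were called the opposite way in Tg mice. The changes in Tg mice were -1.90 for Slc17a7, -2.12 for Nell2, -2.41 for Prrt1 and -1.59 for Spock2, and Anln, Sgk1 and Polr3k rose by 1.01, 1.60 and 1.52. Whether the arrays of an age were run together in both genotypes is not given in the sources used here, so that a run effect shared by the genotypes cannot be told apart from age.

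By gene, 12.1% rose and 12.7% fell in Tg mice, and counts are set beside those of wt mice with no test of the difference. By list, the counts in Tg mice were 14 falls among glutamate receptors, 13 among scaffolds, 15 in vesicle release and 16 in the axon cytoskeleton, beside 15, 16, 19 and 18 in wt mice. Among the groups that rose there were 15 chaperones, 16 proteasome subunits, 19 genes of oxidative phosphorylation and 9 of the glucocorticoid response, beside 22, 18, 29 and 9. Activated microglia had 10 rises in Tg and 7 in wt mice. The interferon response had 2 of 31, below the share of all genes, and 8, which was 3 to 6 when any single wt mouse was left out. The median change of this list was nearly the same in the genotypes, 0.27 in Tg and 0.29 in wt mice. Averaged over its 31 genes, the glutamate receptor list lay at 10.10, 10.17 and 10.13 in the young and 9.70, 9.64 and 9.73 in the old wt mice, and at 10.08, 10.09 and 10.09 against 9.58, 9.60 and 9.63 in Tg mice. The chaperone list lay at 11.51, 11.40 and 11.51 against 11.82, 11.82 and 11.83 in wt mice and at 11.50, 11.53 and 11.52 against 11.68, 11.73 and 11.70 in Tg mice.

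**Figure D4:**
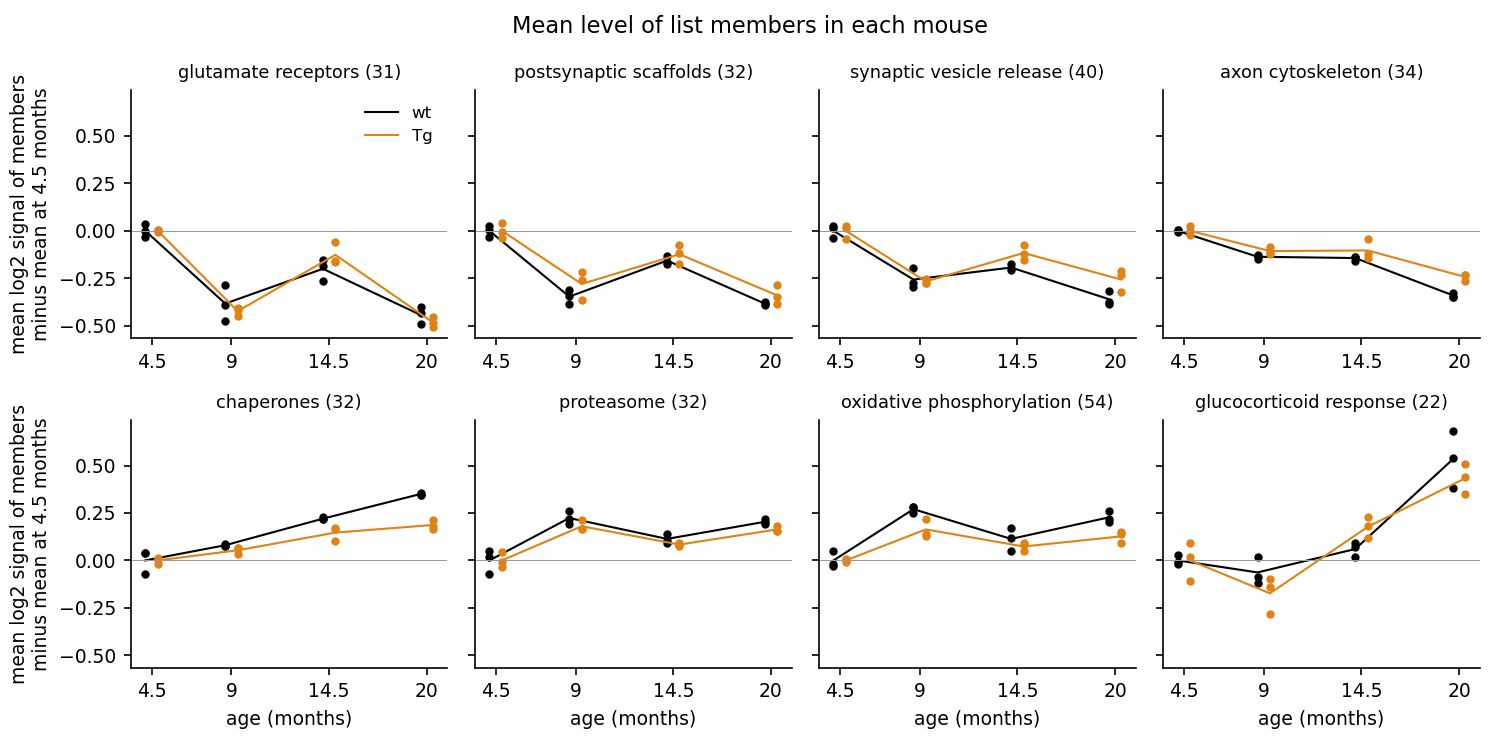
Mean log2 signal over the members of 8 lists in each mouse, minus the mean at 4.5 months of the same genotype (vertical axis), at 4.5, 9, 14.5 and 20 months (horizontal axis), with wt mice in black and Tg mice in orange, 1 point a mouse and lines through the means. In wt mice the glutamate receptor, scaffold and vesicle release lists are lowest at 20 months but do not decline steadily, since their means at 14.5 months lie above those at 9 months.

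The wt mice of 9 and 14.5 months, which share no array with the mice of 4.5 and 20 months, gave another picture. Their arrays also differed in quality measures. The 3'/5' ratio of beta-actin was 0.77 to 0.96 in log2 at 9 months and 0.36 to 0.40 at 14.5 months, while that of Gapdh overlapped. The spiked-in control CreX-3 read 14.51 to 14.94 against 14.07 to 14.12. The part of these shifts in the changes of this step was not tested. Between these ages 4729 probe sets (17.6%) rose and 4518 (16.8%) fell, more than in the comparison of the youngest with the oldest adults. Of the wt rises from 4.5 to 20 months 53.3% had the same sign from 9 to 14.5 months, beside 54.5% of all probe sets, and 20.0% were called the same and 20.1% the opposite way. Of the wt falls 34.9% had the same sign, beside 45.5% of all, and 13.2% were called the same and 29.8% the opposite way. Slc17a7 had means of 12.59 at 9 and 13.26 at 14.5 months, Dlg4 of 10.38 and 11.84, and Prrt1 of 11.08 and 12.46, so that each was lower at 9 months than at 14.5 months. By gene, 14.8% rose and 16.1% fell between these ages. Of all 12844 genes, 259 rose and 250 fell both from 4.5 to 20 and from 9 to 14.5 months. Whether the overlaps of the lists exceed what the counts of each span give alone was not tested. Of the lists that changed most from 4.5 to 20 months, oxidative phosphorylation had 5 rises and 28 falls and the proteasome 4 and 10, whereas chaperones had 15 rises and 7 falls, and 8 of them rose over both spans. The counts were 6 rises and 2 falls for glutamate receptors, 12 and 3 for scaffolds, 14 and 11 for vesicle release and 7 and 8 for the axon cytoskeleton, in which 6 genes fell over both spans.

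**Figure D5:**
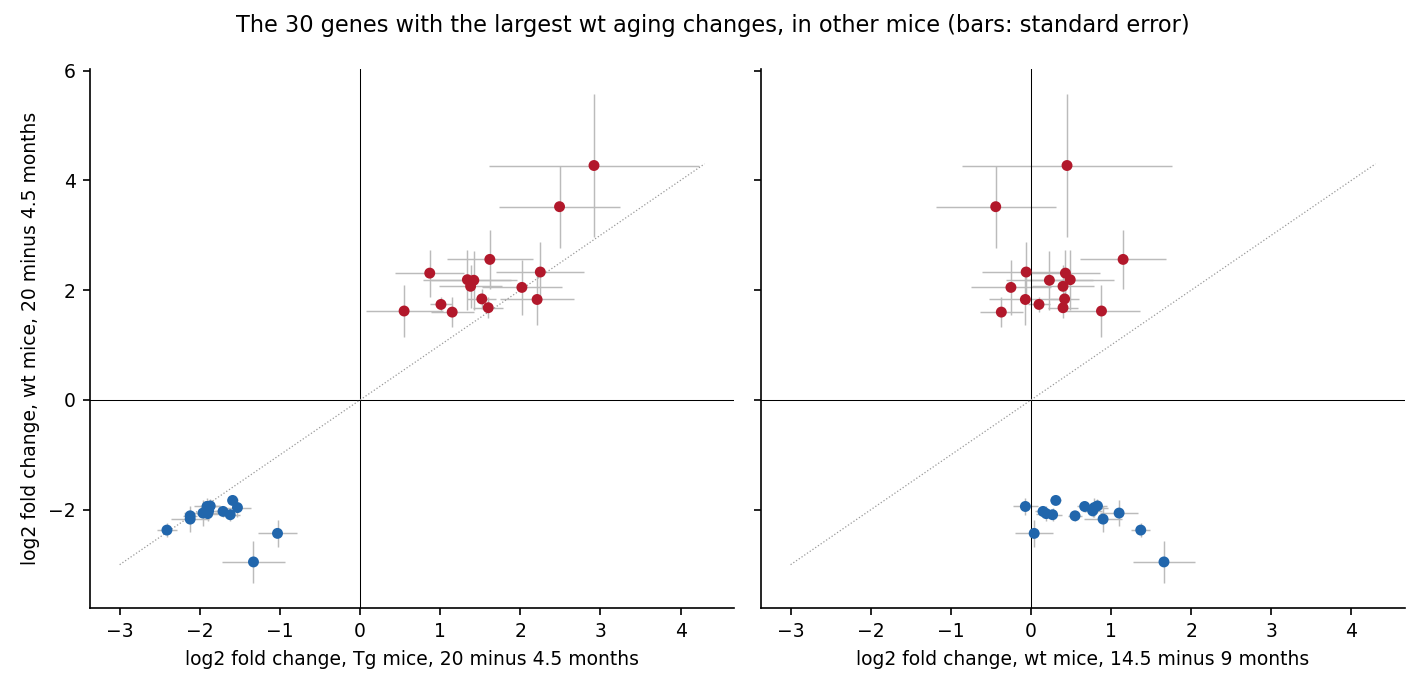
Change from 4.5 to 20 months in wt mice (vertical axis, log2) of the 30 genes with the largest changes, 15 in each direction, against the change over the same ages in Tg mice (left panel) and the change from 9 to 14.5 months in wt mice (right panel), both on the horizontal axis in log2, with bars for the standard error and a dotted line where both changes are equal. All 30 genes lie on the same side of 0 in Tg mice, while most of the genes that fell (blue) had changes above 0 from 9 to 14.5 months.

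Genes that changed the same way over both spans of age and in both genotypes were few. Of 12844 genes, 91 rose and 77 fell with a call in each of 4 comparisons, 20 against 4.5 months and 14.5 against 9 months in wt and in Tg mice. In wt mice alone, 259 genes rose and 250 fell over both spans. From 4.5 to 20 months 2031 rose and 1978 fell, and from 9 to 14.5 months 1897 rose and 2068 fell. Of all genes, 14.8% rose and 16.1% fell from 9 to 14.5 months, so that neither shared count in wt mice exceeded what these shares alone would give. Whether the 91 and 77 genes of all 4 comparisons exceed what the counts would give was not tested. The genes named here were chosen after their values were seen. Tsc22d3 was among the rises, at 0.72 from 9 to 14.5 months in wt mice, as were Rhoa, the GTPase of the actin cytoskeleton, Id1, an inhibitor of differentiation factors, and Sp3, a transcription factor. Rhoa read 10.78, 10.74 and 10.80 at 4.5 months and 11.80, 11.69 and 11.71 at 20 months (0.96 ± 0.10, adjusted p = 6.66e-09) and rose by 1.47 from 9 to 14.5 months. Id1 rose by 0.82 ± 0.13 and 0.58, and Sp3 by 0.69 ± 0.10 and 0.85. Among the falls, Kdm6b, a histone demethylase, went from 10.05, 10.26 and 9.86 to 9.47, 9.15 and 9.08 (-0.83 ± 0.15) and fell by 0.67 from 9 to 14.5 months. Med13l, of the Mediator kinase module, Fam168a and Sephs2, which makes the selenium donor for selenoproteins, fell by 0.78 ± 0.09, 0.60 ± 0.06 and 0.64 ± 0.11 from 4.5 to 20 months, and by 0.60, 0.51 and 0.55 from 9 to 14.5 months.

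Glud1 itself, the mitochondrial enzyme that sets free ammonia from glutamate, read 12.24, 12.47 and 12.25 at 4.5 months and 12.58, 12.52 and 12.46 at 20 months in wt mice (0.20 ± 0.07, adjusted p = 0.029), with 0.11 on its other probe set, and the call was lost without mouse 1 or 3 at 4.5 months or mouse 1 or 2 at 20 months. A test of the difference between the aging change in Tg and in wt mice called 2 probe sets of 26877 (0.00744%), 1 of Dbp and 1 of Pnmt. This Dbp probe set, which is not the brightest of the gene, read 10.41, 10.48 and 10.73 in young and 9.43, 9.68 and 9.42 in old wt mice, and 10.62, 10.68 and 10.57 against 10.56, 10.79 and 10.35 in Tg mice. Its change in Tg minus that in wt mice was 0.97 ± 0.17 (adjusted p = 0.038). Pnmt, the enzyme that makes adrenaline, read 6.75, 7.17 and 7.64 against 7.01, 8.28 and 6.98 in wt mice and 7.55, 7.47 and 7.33 against 5.17, 4.6 and 4.88 in Tg mice, a difference of -2.81 ± 0.45 (adjusted p = 0.02). Pnmt fell by 2.57 ± 0.32 in Tg mice, whereas the wt values of both ages overlapped. The number of calls was 2 without wt mouse 1 at 4.5 months, 0 without mouse 2 and 1 without mouse 3 at that age, 1 without any single wt mouse at 20 months, and 24 without wt mice 1 and 2 at 4.5 months. It was 0 without Tg mouse 1 or 3 at 4.5 months or Tg mouse 2 at 20 months, 1 without Tg mouse 1 and 3 without Tg mouse 3 at 20 months, and 5 without Tg mouse 2 at 4.5 months.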

How the data were processed

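Total RNA of homogenized hippocampus (RNeasy columns, per the labels) was hybridised to Affymetrix mouse genome arrays, 1 mouse an array. The deposited values are linear MAS5 signal intensities, to which the authors had scaled each array; the MAS5 version is not given in the sources used here, and the number of arrays limits the precision. The study's own analysis (RMA, absent call filter, SAM, Cyber-T and EDGE) was not run here.

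Signals were taken to log2 and quantile normalized over all 31 arrays, and probe sets above the array median on at least 3 arrays were kept (26877 of 45037; 64 control probe sets were left out). A model with 10 group means was fitted in limma 3.58.1 (R 4.3.3; trended, robust moderation) and adjusted by Benjamini-Hochberg. Tables and exact permutation tests used Python 3.11.15, pandas 2.3.3 and scipy 1.17.1, and the fit was tested on simulated data. Mice are taken as separate animals from their labels. Probe sets were named from the platform annotation, 34945 with 1 gene, 932 with several and 9160 with none, and symbols were updated by gene ID to RefSeq (34741 matched).

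Genes were named by rule: the 15 largest changes in each direction with 50 added to the signal, the 4 members of smallest p of each of 41 lists, genes reported in earlier work on aging, genes that differed between genotypes, and Glud1. Further genes were named after their values were seen, for their place in a list. The comparison, the members and the lists were chosen with earlier results of these data known. Alternatives covered normalization, offset, filter, moderation, replicate block, the arrays fitted, thresholds, the choice of probe set and each of the 6 wt mice left out. Leaving out mice 1 and 2 at 4.5 months together, each Tg mouse of 4.5 and 20 months (for the difference between genotypes) and each wt mouse of 9 and 14.5 months (for that step) was added after seeing the data.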

Additional observations from a re-analysis of the deposited data

Results flagged for a closer look

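Of the tested differences between genotypes, a pair of probe sets had an aging change that differed between Tg and wt mice. For 1 of the 2 tested probe sets of Dbp, the change in Tg minus that in wt mice was 0.97 (adjusted p = 0.038, limma). It passed the test under 9 of 20 alternatives, with adjusted p from 0.021 to 0.24, and the other Dbp probe set gave 0.98 with an adjusted p of 0.12. For Pnmt the difference was -2.81 (adjusted p = 0.02), which passed under 10 of 19 alternatives with adjusted p from 0.013 to 0.13 and differences from -3.04 to -1.69. The old Tg mice read Pnmt at only 4.6 to 5.17, a dim signal, and no other probe set of Pnmt was tested. Groups of 3 mice were too small for a test of single outlying mice.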

How the results depend on the processing

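Of 26877 probe sets, 3958 rose and 3668 fell, and other choices of normalization, offset, filter, moderation or arrays gave 3557 to 4054 rises and 3386 to 3869 falls. With the replicate number as a replicate block, 3885 rose and 3592 fell; mice of the same number did not deviate together (correlations 0.103, -0.094 and 0.064), so the numbers were not taken as pairs. With 1 of the 6 wt mice left out the rises were 3067 to 3607 and the falls 3037 to 3294. Without mice 1 and 2 at 4.5 months, where the lone young mouse is assumed to vary like the other groups, 2294 rose and 2241 fell. A fold of at least 1.3 with an adjusted p of at most 0.01 left 2016 rises and 2223 falls, and a fold of at least 2 left 407 and 692. The difference between genotypes, called for 2 probe sets, was called for 0 with 50 added or without the trend, for 1 without the filter or with the filter at the percentile 60, for 3 with the replicate block, for 0 to 5 with 1 of its 6 wt or 6 Tg mice left out and for 24 without mice 1 and 2 at 4.5 months. From 9 to 14.5 months 9247 probe sets were called in wt mice, and 7237 to 9533 over its alternatives. Of the 198 named genes that were called, 141 lost the call under at least 1 alternative, with a gene counted under each: 125 at the 2-fold threshold, 28 at the 1.3-fold threshold, 37 without mice 1 and 2 at 4.5 months, 28 with 1 wt mouse left out and 14 under another processing choice, among them Penk (-1.06) and Trem2 (2.30) with the 6 wt arrays alone and Notch3 with the 12 adult wt arrays alone. Taking each gene by the median change of its probe sets turned the sign of 6: Laptm5 (-0.25), Psma1 (-0.08), Sod1 (-0.06), Clock (-0.06), Rims2 (-0.13) and Rab3a (-0.05). The cause was not tested.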
